A study of Mus musculus with 7 samples.

Results

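The keratin genes examined in the mouse pancreatic ductal adenocarcinoma (PDA) tumors were Krt7, Krt8, Krt18, Krt19, Krt20, Krt23 and Krt80, which belong to the simple or less specialized keratins, Krt5 and Krt14 of stratified epithelia, and the stress keratin Krt17. They are 10 genes chosen by symbol, against 22629 rows of the count table and 54 genes with a symbol of Krt and a number in the GENCODE M21 annotation. Of the 10, 8 have a row in the table, and Krt5 and Krt17 were not analysed here. Of the 8, 7 had enough counts for the test between groups, and Krt14 did not.

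RNA was sequenced from 7 s/c tumors that formed in C57BL/6 mice and were harvested 2 weeks after inoculation, 3 in the group sgScramble and 4 in the group icOVA. All were grown from 1242 KPC cells, a mouse PDA line derived from a tumor of a genetically engineered mouse, which were transduced with lentivirus for Cas9 and the scrambled control guide sgScramble, so that Krt19 was not targeted in either group. The icOVA cells also carried a doxycycline-inducible vector for GFP and a cytoplasmic ovalbumin (OVA), were sorted and cloned from single cells, and were induced with doxycycline food from inoculation, with more cells inoculated than the study's usual number. Where clone, vector, transgene expression and doxycycline differed between these groups, they cannot be told apart. It is not given in the sources used here if a clone or a polyclonal line formed the sgScramble tumors, or if those tumors carried the vector or received doxycycline. The mice were bought at 6 weeks of age and kept for 2 weeks before an experiment. Cells were injected into 1 flank, and the study describes the tumors as individual, although the labels do not number the mice.

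Keratins are the intermediate filament proteins of epithelial cells. A filament is built from pairs of 1 type I chain and 1 type II chain, so that type I KRT18, KRT19, KRT20, KRT23, KRT14 and KRT17 need a type II partner such as KRT8, KRT7, KRT5 or KRT80. KRT8 and KRT18 are the primary pair of simple epithelia, KRT7 and KRT19 are typical of ducts, KRT20 marks intestinal and some gastric cells, and KRT5 and KRT14 form the filaments of the basal epidermis. In this study KRT19 is the keratin that is linked to CXCL12 on the surface of cancer cells, KRT8 is its partner, and KRT20 served as a stain for cancer cells.

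The genes lie in 2 clusters on GRCm38. Krt7, Krt8, Krt18, Krt5 and Krt80 are on chromosome 15 within 0.685 Mb, and Krt19, Krt20, Krt23, Krt14 and Krt17 are on chromosome 11 within 0.833 Mb. Krt18 is the type I gene that sits beside the type II genes. It starts 23.7 kb from the start of Krt8 and on the other strand, with 1 annotated gene between them, the lincRNA Gm36026. RefSeq promoter sequences on GRCm38.p6 matched 7 of the 10 genes, and Krt19, Krt17 and Krt80 had no entry. Those of Krt8, Krt18 and Krt20 are shown because these genes were the abundant keratins with an entry that were lowest together in icOVA tumor 18, as described below. Each is the stretch upstream of the RefSeq start, ended before the first base that GENCODE M21 annotates as exon, and capitals mark the TATA box letters TATAAA.
Krt8 (chr15:102004483-102004592, minus strand): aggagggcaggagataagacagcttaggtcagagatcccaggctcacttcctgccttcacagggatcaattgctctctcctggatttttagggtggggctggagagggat
Krt18 (chr15:102027966-102028179, plus strand): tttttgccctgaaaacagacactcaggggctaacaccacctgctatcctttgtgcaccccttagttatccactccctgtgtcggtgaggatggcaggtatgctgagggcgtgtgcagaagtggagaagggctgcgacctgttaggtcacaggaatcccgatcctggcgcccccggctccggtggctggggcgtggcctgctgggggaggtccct
Krt20 (chr11:99438154-99438403, minus strand): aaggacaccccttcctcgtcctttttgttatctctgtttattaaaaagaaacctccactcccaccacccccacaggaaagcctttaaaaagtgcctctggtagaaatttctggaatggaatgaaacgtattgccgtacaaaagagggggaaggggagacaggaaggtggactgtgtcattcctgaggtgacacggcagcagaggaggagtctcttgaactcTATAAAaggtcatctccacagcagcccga
The 250 bases before the RefSeq start were searched on both strands for TATAAA, for the GC box letters GGGCGG and for TGANTCA, the letters bound by AP-1. TATAAA occurred in Krt20 alone among the 7 promoters, beginning 29 bases before the start, and in 12.4% of 32851 promoters of the same length. GGGCGG occurred 4 times in Krt7 and in none of the other 6 promoters, against 32.7% of all promoters with a match. TGANTCA was in none of the 7 and in 6.75% of all promoters. These are matches of letters, and what binds there was not measured.

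Sequencing gave total counts of 34723344, 32771160 and 30904855 for sgScramble tumors 1, 4 and 5. For icOVA tumors 15, 16, 18 and 2, given in this order throughout, the totals were 37510591, 35612477, 34436971 and 32062089. CPM below is a count scaled to a library of 1000000 counts, with the TMM-adjusted library size. OVA, which checks the labels, was at 4.35, 2.58 and 2.94 CPM in the sgScramble tumors and at 186, 308, 98.2 and 248 CPM in the icOVA tumors. The epithelial label was checked with genes other than keratins. Cdh1, encoding E-cadherin, was at 1100, 916 and 1090 CPM in sgScramble tumors and at 753, 949, 364 and 774 CPM in icOVA tumors 15, 16, 18 and 2. Of the other 15 epithelial genes with a row, Spint2, encoding a protease inhibitor, was at 60.1 to 187 CPM and the transcription factor gene Elf3 at 35.4 to 126 CPM. Among the defining markers, Epcam was between 4.29 and 18.5 CPM and the tight junction gene Cldn7 at no more than 0.152 CPM in any tumor.

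The tumors expressed a simple keratin program. Levels between genes are compared per length, as CPM per kilobase of the union of annotated exons. Krt18 and Krt8 were the most abundant, at mean levels of 810 ± 101.5 and 729 ± 98.5 CPM per kb (SD, n = 7), followed by Krt19 at 338 ± 74.9 and Krt20 at 179 ± 38.5. Krt23 and Krt7 followed at 30.7 ± 8.08 and 29.3 ± 4.97 CPM per kb. Krt80 had a level of 2.42 ± 0.473 CPM per kb, and Krt14 of 0.0854 ± 0.0722. Among 22414 genes with a length, Krt18 ranked between 28 and 50 by level in the 7 tumors, Krt8 between 38 and 54, Krt19 between 70 and 182, and Krt20 between 160 and 365. Vim, encoding vimentin, the intermediate filament of mesenchymal cells, had levels from 339 to 455 CPM per kb in the same tumors, between those of Krt8 and Krt20.

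Neighbours in this order were compared within tumors by an exact two-sided sign-flip permutation test, with Benjamini-Hochberg adjustment over the 7 neighbouring pairs. The order was taken from the mean levels of these same 7 tumors, so the p values are no independent support for it. They cover the spread between tumors and leave out the error of the lengths. The step from Krt8 to Krt19 was 2.19-fold, that from Krt19 to Krt20 1.89-fold and that from Krt20 to Krt23 5.87-fold, each in 7 of 7 tumors (adjusted p = 0.0219 in the exact test, with an unadjusted p of 0.0156, the smallest that 7 tumors can give). The same p was found for the steps from Krt7 to Krt80 (12.2-fold) and from Krt80 to Krt14 (34.1-fold). Krt18 was 1.11-fold above Krt8 in 6 of 7 tumors (exact test, adjusted p = 0.0365). Krt23 and Krt7 could not be ordered, with Krt23 higher in 3 of 7 tumors and a mean difference of 0.04 ± 0.51 (log2, SD, n = 7, exact test, adjusted p = 0.891).

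The place of Krt7 depended on its length. The exon union of Krt7 is 7049 bases because it includes exons of several annotated transcripts, whereas its longest transcript has 4094 bases and its coding sequence 1371. Per kilobase of coding length, Krt7 was at 151 ± 25.5 and Krt23 at 37.9 ± 9.98 CPM per kb (SD, n = 7), with Krt7 4.05-fold higher in 7 of 7 tumors (exact test, adjusted p = 0.0182). The order of the leading pair turned as well, with Krt8 1.06-fold above Krt18 in 5 of 7 tumors by coding length (exact test, adjusted p = 0.172). The places of Krt19, Krt20, Krt80 and Krt14 were the same with all 3 lengths.

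**Figure D1:**
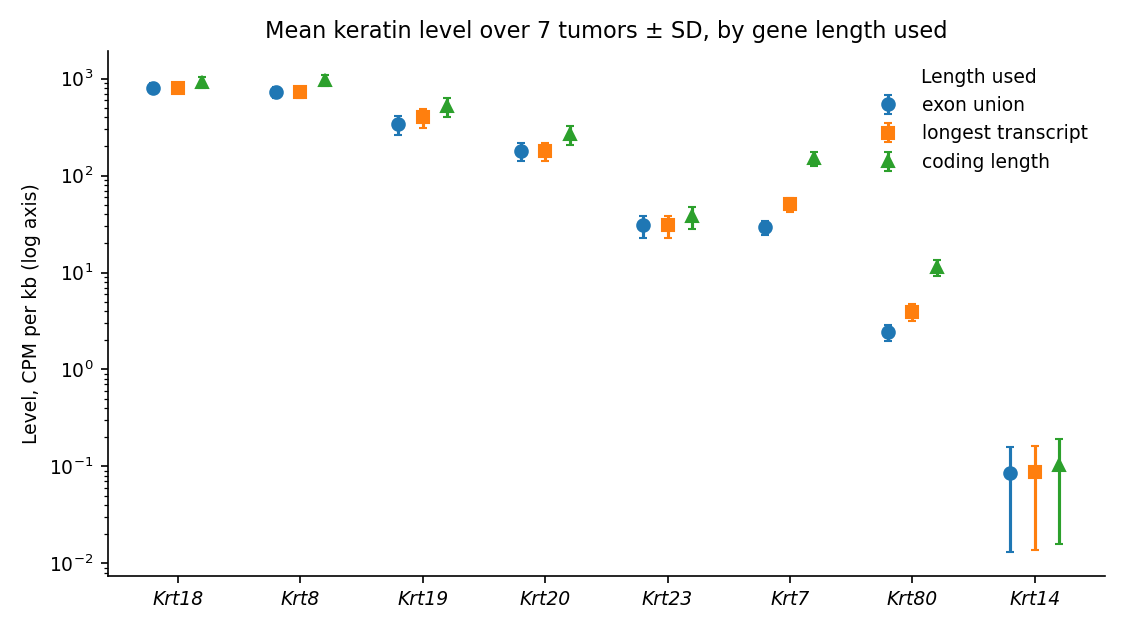
Mean level of each keratin gene over 7 tumors in CPM per kb on a log axis, with error bars of 1 SD, computed with the exon union (circles), the longest transcript (squares) or the coding length (triangles). Krt18, Krt8, Krt19 and Krt20 lead with each length, and Krt7 moves from 29.3 to 151 CPM per kb between the exon union and the coding length.

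The 8 keratins together held 0.385%, 0.383% and 0.372% of all counts in sgScramble tumors, against 0.426%, 0.427%, 0.28% and 0.407% in the icOVA tumors. The 95% Wilson interval, which covers counting error alone, was 0.279% to 0.282% for icOVA tumor 18 and of similar width for the others. The icOVA tumor 18 had the lowest share and the other 3 icOVA tumors the highest shares. By level, Krt8, Krt18 and Krt19 made up between 87.5% and 89.5% of the keratin sum in every tumor. The share of Krt18 was 40.6%, 39.6% and 40.4% in the sgScramble tumors and 34.3%, 37.2%, 39.1% and 37.4% in the icOVA tumors, and the groups did not overlap with the longest transcript or the coding length either. The shares of all the other keratins overlapped between groups, that of Krt19 at 15.8%, 14.9% and 16.5% against 18.9%, 15.4%, 12.9% and 16.2%.

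Summed type II levels were lower than summed type I levels in every tumor, with ratios of 0.515, 0.576 and 0.508 in sgScramble tumors and 0.589, 0.567, 0.646 and 0.55 in icOVA tumors. The ratio depends on the lengths used and was 0.658 on average with coding lengths, against 0.564 with the exon union. For the primary pair, the ratio of Krt8 to Krt18 levels was 0.805, 0.885 and 0.795 in sgScramble tumors, against 1.03, 0.944, 0.956 and 0.909 in the icOVA tumors. All 4 icOVA ratios lay above all 3 sgScramble ratios, and a change of length would multiply all 7 by the same factor. This is given as a description without a test, because the ratio is computed from the members. How often the ratios of other gene pairs part the groups was not computed. Krt19 to Krt8 ratios were 0.483, 0.424 and 0.514 in sgScramble tumors and 0.536, 0.439, 0.346 and 0.477 in icOVA tumors, and the groups overlapped. Krt20 to Krt19 ratios overlapped too, at 0.498, 0.517 and 0.497 against 0.453, 0.617, 0.573 and 0.571.

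**Figure D2:**
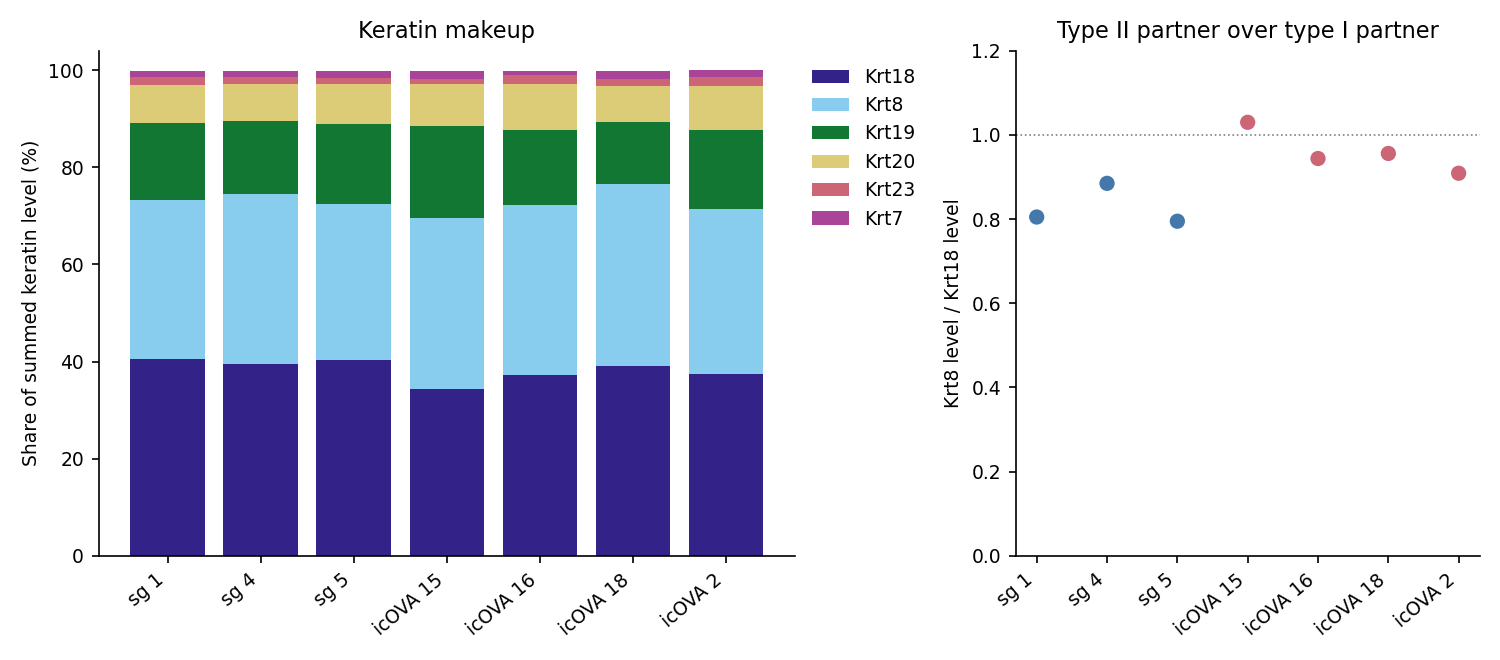
Left, the share of each keratin in the summed level of the 8 genes (%) in each tumor, with Krt80 and Krt14 too small to draw. Right, the ratio of the Krt8 level to the Krt18 level in each tumor, with sgScramble (sg) in blue and icOVA in red and a dotted line at 1. Krt18, Krt8 and Krt19 make up most of the sum in every tumor, the Krt18 share is 39.6% to 40.6% in sgScramble and 34.3% to 39.1% in icOVA tumors, and the ratio is 0.795 to 0.885 in sgScramble and 0.909 to 1.03 in icOVA tumors.

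The comparison of icOVA with sgScramble tumors asks whether keratin RNA differed once the cancer cells expressed a foreign antigen. Of 17489 genes tested with edgeR's quasi-likelihood test, 1032 passed an adjusted p of 0.05, or 5.90% of those tested, with 588 higher (3.36%) and 444 lower (2.54%) in icOVA tumors. No gene passed after omitting icOVA tumor 15, sgScramble tumor 1 or sgScramble tumor 5, which holds for every edgeR call named below. DESeq2 was not run with a tumor left out. None of the 7 keratins tested passed in edgeR, and 1 of them, Krt80, had an unadjusted p below 0.05, against 4763 of all genes tested (27.2%). Limma-voom called none and DESeq2 called Krt80, 1 of the 7, where it called 2820 of the 17348 genes with an adjusted p (16.3%). The median log2 fold change of the 7 keratins was 0.10 and that of all genes tested was -0.0048. In whole tumors, fewer cancer cells and less keratin RNA per cancer cell cannot be told apart.

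Krt19 was at 631, 582 and 625 CPM in sgScramble tumors 1, 4 and 5, and at 822, 695, 364 and 672 CPM in icOVA tumors 15, 16, 18 and 2. Of the icOVA tumors, 3 were above every sgScramble tumor and tumor 18 was below them all. The log2 fold change was 0.06 (SE 0.24, 95% interval -0.50 to 0.62, edgeR adjusted p = 0.896), which spans 0.707-fold to 1.53-fold. It turned to -0.08 without icOVA tumor 15 and was 0.25 in the highest of the values with a tumor left out.

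Krt8, the type II partner of both KRT18 and KRT19, was at 1380, 1448 and 1282 CPM in sgScramble tumors and at 1618, 1670, 1110 and 1487 CPM in icOVA tumors 15, 16, 18 and 2. Again 3 icOVA tumors exceeded all sgScramble tumors, and tumor 18 was the lowest of the 7. Its log2 fold change was 0.10 (SE 0.15, 95% interval -0.24 to 0.44, edgeR adjusted p = 0.686). Krt18 was at 1258, 1201 and 1184 CPM in sgScramble tumors and at 1154, 1298, 852 and 1200 CPM in icOVA tumors. Unlike Krt8, it was above the sgScramble tumors in 1 icOVA tumor and below them in 2. Its log2 fold change was -0.11 (SE 0.14, 95% interval -0.44 to 0.22, edgeR adjusted p = 0.653), and it was 0.00487 without icOVA tumor 18.

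Krt20 was at 326, 312.5 and 323 CPM in sgScramble tumors and at 386.5, 445.5, 217 and 398 CPM in icOVA tumors 15, 16, 18 and 2. The coefficient of variation was 2.25% among the sgScramble tumors and 27.6% among the icOVA tumors. The log2 fold change was 0.17 (SE 0.22, 95% interval -0.33 to 0.68, edgeR adjusted p = 0.640). Without icOVA tumor 18 it was 0.36 with an adjusted p of 0.0432 from edgeR, so that 1 tumor decides this call. Over all 15 alternatives its adjusted p ranged from 0.0432 to 1. Krt23, a type I keratin of digestive epithelia, was at 56.6, 43.5 and 38.1 CPM in sgScramble tumors and 41.1, 64.3, 31.2 and 61.1 CPM in icOVA tumors. Its groups overlapped (log2 fold change 0.10, SE 0.26, edgeR adjusted p = 0.83).

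Krt7, the ductal type II keratin, was at 186, 208 and 216 CPM in sgScramble tumors and at 272, 163, 184 and 219.5 CPM in icOVA tumors 15, 16, 18 and 2. Its lowest tumor was icOVA 16 and not 18, and its log2 fold change was 0.04 (SE 0.17, 95% interval -0.35 to 0.43, edgeR adjusted p = 0.889). Krt80, a type II keratin found in many epithelia, was at 12.1, 14.8 and 11.5 CPM in sgScramble tumors and at 19.6, 16.5, 18.6 and 15.1 CPM in icOVA tumors. All icOVA tumors were above all sgScramble tumors. Among all genes tested, 11.3% had icOVA tumors without overlap above the sgScramble tumors, and Krt80 was 1 of the 7 keratins. Its log2 fold change of 0.44 (SE 0.14, 95% interval 0.13 to 0.76) had an adjusted p of 0.0907 from edgeR and 0.0242 from DESeq2, with a range of 0.0242 to 1 over all 15 alternatives.

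**Figure D3:**
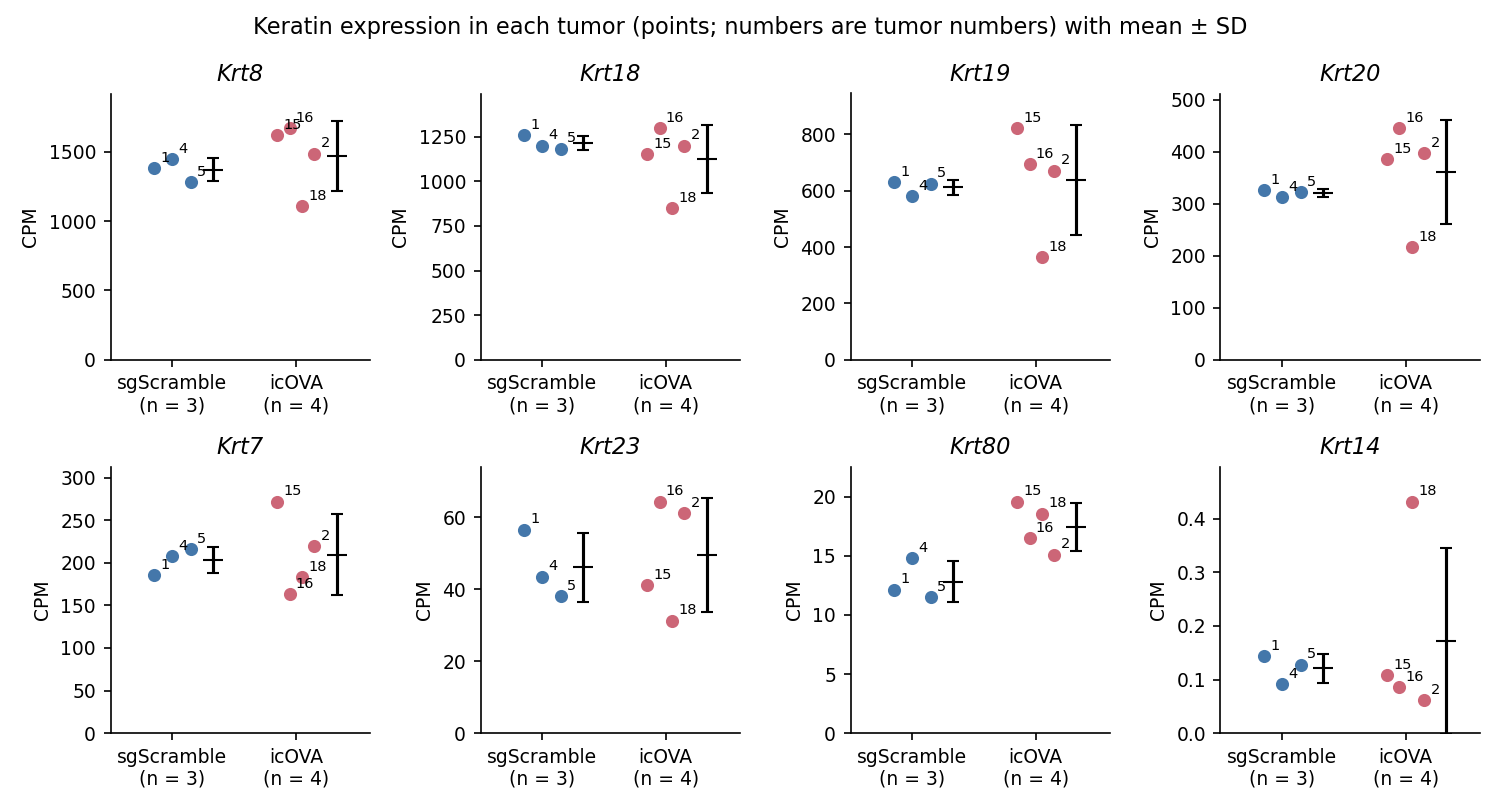
Expression of the 8 keratin genes in CPM on linear axes from 0, 1 point per tumor labelled with the tumor's number, for sgScramble (blue, n = 3) and icOVA (red, n = 4), with mean ± SD in black beside each group (the lower end of the Krt14 icOVA bar falls below the axis). Krt80 is the gene whose groups do not overlap, and icOVA tumor 18 is the lowest point for Krt8, Krt18, Krt19, Krt20 and Krt23.

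Of the listed basal pair Krt5 and Krt14, Krt14 could be read and was close to absent. It had 5, 3 and 4 counts in sgScramble tumors and 4, 3, 15 and 2 counts in icOVA tumors 15, 16, 18 and 2, of at least 30904855 counts in each tumor. Its highest count was in icOVA tumor 18. The basal and epidermal genes that accompany KRT5 and KRT14 were low as well. Trp63, encoding the basal cell regulator p63, was between 0.155 and 0.777 CPM, and Lor, encoding loricrin of the cornified layer, was between 0.054 and 0.416 CPM.

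The copies of a keratin gene limit some of these values. Of the 76-base windows of the longest Krt8 transcript, 23.2% also occur in another annotated transcript, 21.8% in the processed pseudogene Krt8-ps, so that reads of these windows cannot be assigned to either. Krt8-ps had 1.29 to 1.49 counts per 100 Krt8 counts in sgScramble tumors and 1.53 to 1.76 in icOVA tumors, without overlap. In CPM, 11.3% of all genes tested were higher in icOVA tumors without overlap, and no such share was computed for ratios. Krt7, Krt18, Krt19, Krt20 and Krt23 shared no window with another annotated gene. Krt14 shared 5.79% of its windows with Krt16, and Krt80 2.52% with Gm35853.

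The rest of the keratin family added little. Another 16 keratin genes had a row, and together they held 0.412% of all keratin CPM. The highest levels were those of Krt13 (3.29 CPM per kb, mean of 7 tumors), a keratin of internal stratified epithelia, Krt79 (0.938), Krt10 of the upper epidermis (0.899), Krt12 of the cornea (0.448) and Krt16 (0.358), which is induced in stressed epidermis. Of the 16, 13 had fewer than 50 counts in every tumor. Of the 9 tested, edgeR, DESeq2 and limma-voom called none, and 2 had an unadjusted p below 0.05 in edgeR, a share of 9 that does not exceed the 27.2% of all genes. These were Krt16, with 17, 10 and 9 counts against 18, 35, 21 and 24 (log2 fold change 0.96, SE 0.36, adjusted p = 0.135), and Krt79, with 149, 61 and 81 counts against 319, 173, 124 and 172 (log2 fold change 0.95, SE 0.38, adjusted p = 0.155).

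**Figure D4:**
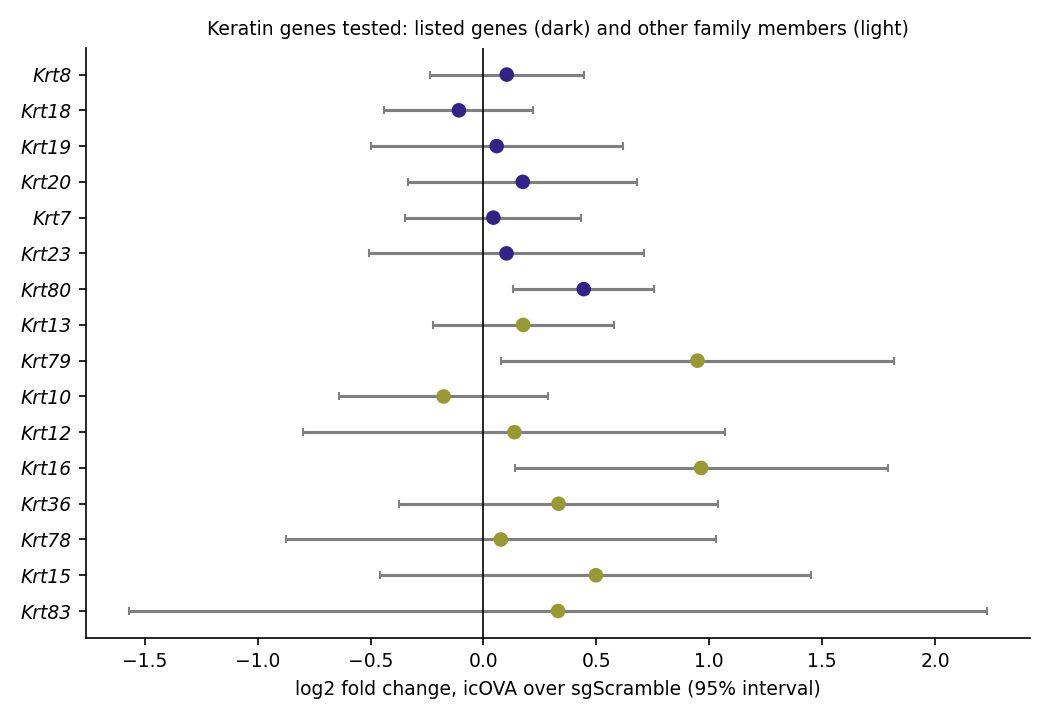
Log2 fold change of icOVA over sgScramble tumors from edgeR for the 7 listed keratins tested (dark) and the 9 other keratins tested (light), with 95% intervals that are not adjusted for the number of genes. The intervals of Krt80, Krt79 and Krt16 lie above 0, and no adjusted p was below 0.05.

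The icOVA tumor 18 had the lowest values of most abundant keratins, although none of 13 keratin values of the icOVA group passed Dixon's outlier test (largest gap over range 0.803, for Krt20). Against the mean of icOVA tumors 15, 16 and 2, its CPM was 69.7% for Krt8, 69.9% for Krt18, 49.9% for Krt19, 52.9% for Krt20 and 56.3% for Krt23. Krt7 was at 84.2% and Krt80 at 109%. Cdh1 was at 44.1% and Muc1, the mucin of ductal cells, at 22.2% of the other icOVA tumors. Vim was at 105%, Ptprc, the pan-leukocyte gene encoding CD45, at 106%, and the collagen gene Col3a1 at 264%. The lowest values of 5 keratins fell in the tumor with the highest fibroblast sum, whereas icOVA tumor 15, with the second highest sum, had the highest Krt19 and Krt7 of the 7 tumors. The part of tissue makeup in the keratin values was not tested beyond the scaling to epithelial genes.

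**Figure D5:**
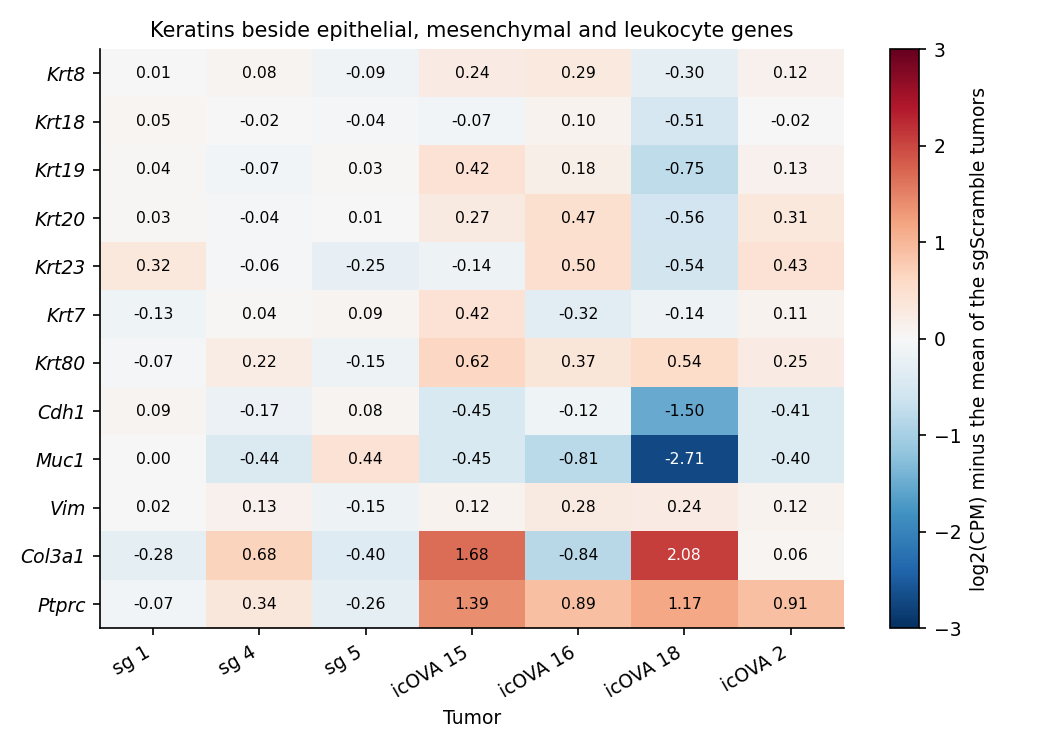
Log2 CPM minus the mean of the sgScramble tumors for 7 keratins, the epithelial genes Cdh1 and Muc1, Vim, Col3a1 and Ptprc (rows) in each of the 7 tumors (columns), with the value in each cell. In icOVA tumor 18 Krt19 is at -0.751, Cdh1 at -1.5 and Col3a1 at 2.08, and Ptprc is above 0.89 in all icOVA tumors.

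Scaling libraries so that 14 epithelial genes without keratins had the same geometric mean in all tumors moved tumor 18 to the other end for Krt8, Krt18, Krt20 and Krt23, and it was also highest for Krt7 and Krt80. It then had the highest scaled Krt8, at 2251 against 1068 to 1945 in the other tumors, and the highest Krt18 at 1727. No keratin was called on this scale, and the log2 fold changes ran from -0.05 for Krt18 to 0.58 for Krt80. Krt19 on this scale was 527, 782 and 520 in sgScramble tumors and 654.5, 602, 738 and 515 in icOVA tumors, with overlapping groups.

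Across the 7 tumors, 4 relations of log2 CPM were tested by exact permutation. Krt8 on Krt19 had a Pearson r of 0.88 (exact p = 0.00952, adjusted p = 0.019) and a Spearman rho of 0.857 (exact p = 0.0238, adjusted p = 0.0952). Without the 2 tumors farthest from the median Krt19, icOVA 15 and 18, r was 0.619, and r of the deviations from the group means was 0.905. Krt19 on the mean of 14 epithelial genes had r of 0.907 (exact p = 0.00873, adjusted p = 0.019) and rho of 0.679 (exact p = 0.11, adjusted p = 0.219). Its r dropped to 0.226 without sgScramble 4 and icOVA 18, so that the relation rested on those tumors. With all tumors kept, the deviations from the group means gave 0.91.

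Krt18 on Krt8 had r of 0.777 (exact p = 0.0468, adjusted p = 0.0624) and rho of 0.5 (exact p = 0.267, adjusted p = 0.267). It turned to -0.464 without icOVA tumors 16 and 18, while the deviations from the group means gave 0.931. Krt14 on 4 epidermal genes had r of -0.472 (exact p = 0.308, adjusted p = 0.308) and rho of -0.607 (exact p = 0.167, adjusted p = 0.222), from 2 to 15 Krt14 counts. Its r was -0.965 without sgScramble tumors 4 and 5 and -0.744 within groups. As a description, Krt80 had r between -0.473 and 0.193 with the other 6 keratins tested, and Krt7 between -0.291 and 0.46.

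The genes whose log2 CPM was most like that of Krt19 over the 7 tumors, among 11912 genes with a mean of at least 5 CPM, were Ociad2 (Pearson r = 0.995), Hnrnpf (0.993), Odf2l (0.990), Golga1 (0.980) and Gfpt1 (0.979). Hnrnpf encodes an RNA-binding protein, Golga1 a golgin and Gfpt1 the first enzyme of hexosamine synthesis. Ociad2 was at 52.6, 50.8 and 53.3 CPM in sgScramble tumors and at 66.4, 55.9, 33.5 and 57.8 CPM in icOVA tumors 15, 16, 18 and 2. As for Krt19, tumor 15 was highest and tumor 18 lowest. Of the keratins, Krt20 ranked 115 and Krt8 ranked 183 in likeness to Krt19, and Krt80 ranked 7139. These values are descriptions over 7 tumors, in which all genes compared share the same 7 libraries.

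Of the 4 genes listed for the CXCL12 coat beside Krt19, 1 was called higher and none lower by edgeR. Over all genes tested, 3.36% were called higher and 2.54% lower. DESeq2 called 2 of the 4, against 16.3% of all genes. Tgm2, the transglutaminase of the coat, was at 947, 840.5 and 943 CPM in sgScramble tumors and at 769, 911, 582 and 834 CPM in icOVA tumors (log2 fold change -0.23, SE 0.15, edgeR adjusted p = 0.346). Cxcl12, encoding the chemokine, was at 44.9, 121 and 51.1 CPM against 228, 80.9, 245 and 160 CPM, with overlapping groups (log2 fold change 1.30, SE 0.47, edgeR adjusted p = 0.127). In icOVA tumor 18 Cxcl12 was highest and Tgm2 and Krt19 lowest. Cxcr4, encoding the receptor of CXCL12, was at 34.1 to 38.3 CPM in sgScramble and 45.4 to 64.1 CPM in icOVA tumors (log2 fold change 0.50, SE 0.14, edgeR adjusted p = 0.0719). F13a1, encoding the transglutaminase factor XIII A, rose from 20.3, 28.1 and 23.7 CPM to 53.4, 45.6, 62.2 and 44.7 CPM (log2 fold change 1.10, SE 0.16, edgeR adjusted p = 0.0230).

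Of 16 genes for desmosomes and for linkers that tie keratin filaments to junctions, all 16 were tested and none was called by edgeR, with a median log2 fold change of -0.24 and 3 at an unadjusted p below 0.05 (27.2% of all genes tested had one). Plec, encoding the linker plectin, had the highest mean of the list, from 473 to 737 CPM. Of 14 epithelial genes tested, none was called, the median was -0.04 and 2 had an unadjusted p below 0.05. The median of 12 pancreatic and ductal genes was -0.46, with 1 called lower by edgeR (2.54% of all genes tested were). Of the 12, 7 had an unadjusted p below 0.05, and Muc1 had the highest mean of that list. DESeq2 called 2 of the linker and desmosome genes, 1 epithelial gene and 4 of the pancreatic and ductal genes, against 16.3% of all genes.

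Of 10 basal and squamous genes tested, 1 was called higher by edgeR (3.36% of all genes tested were), with a median of 0.30. In edgeR, 3 of the 10 had an unadjusted p below 0.05, against 27.2% of all genes. Lama3, a laminin chain of the epithelial basement membrane, rose from 7.46, 6.93 and 9.34 CPM to 54.6, 39.1, 15.6 and 48.5 CPM (log2 fold change 2.32, edgeR adjusted p = 0.0284). Limma-voom called none of this list, and DESeq2 called 2, against 16.3% of all genes. Itga6, the basal integrin, had the highest mean of the list, from 284 to 461 CPM. Of 4 epidermal differentiation genes tested none was called by edgeR (1 at an unadjusted p below 0.05). DESeq2 called 1 gene of this list, against 16.3% of all genes. Ivl, encoding involucrin, was its most abundant gene at 3.74 to 24 CPM. Of 9 other intermediate filament genes tested none was called by edgeR (3 at an unadjusted p below 0.05), and DESeq2 called 1 gene of that list. Vim was at 1800, 1950 and 1610 CPM against 1930, 2160, 2100 and 1930 CPM (log2 fold change 0.18, SE 0.10, edgeR adjusted p = 0.277).

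Markers of other cells were compared beside the keratins. Of 9 leukocyte genes, 4 were called higher by edgeR (3.36% of all genes tested were) and none lower, with a median of 0.98. Ptprc, the most abundant, rose from 132, 175 and 116 CPM to 363, 258, 312 and 260 CPM (log2 fold change 1.08, SE 0.18, edgeR adjusted p = 0.0271). The others were Cd3e and Cd4 of T cells (log2 fold changes 1.27 and 1.44) and Itgam of myeloid cells (0.83). The summed leukocyte CPM was 377 to 544.5 in sgScramble and 696 to 900 in icOVA tumors. None of 8 fibroblast genes was called (median 1.01, 1 at an unadjusted p below 0.05). Their sum was 7179, 15800 and 6720 CPM in sgScramble tumors and 26740, 5641, 36840 and 9202 CPM in icOVA tumors 15, 16, 18 and 2, most of it from Col3a1 and the other collagens. None of 5 endothelial genes was called (median 0.85, 5 at an unadjusted p below 0.05), and Pecam1 was the most abundant. DESeq2 called 4 of the 5 endothelial genes, against 16.3% of all genes.

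Markers of tissues that themselves express keratins differed widely in level. Of the 4 mesothelial markers, Upk3b and Lrrn4 did not exceed 0.384 CPM and were at 0 in some tumors, and Wt1 was at 0.224 to 0.668 CPM. Msln alone was abundant, at 216 to 365 CPM, and which cells expressed it was not tested. The 3 mammary genes with a row summed to 0.0576 to 3.34 CPM, with Glycam1 the most abundant. Hepatocyte genes summed to 88.9, 46.2 and 112 CPM in sgScramble and 9.78, 29.2, 1.47 and 25.3 CPM in icOVA tumors, mostly Ttr. Of 5 tested, Alb and Fga were called lower (log2 fold changes -4.16 and -4.72, edgeR adjusted p = 0.0280 and 0.0313), against 2.54% of all genes. Each was at no more than 3.89 CPM. Limma-voom called 1 of the 5, Alb. Muscle genes summed to 1.96 to 157.5 CPM, led by Acta1, and adipocyte genes to 0.401 to 10.2 CPM, led by Cfd, with none called in either list. The part of these cells in the keratin values was not tested.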

How the data were processed

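The authors deposited raw counts per gene for 7 tumors, without normalization. Libraries were made with an Illumina TruSeq kit (stranded total RNA in the study's methods, polyA RNA in the labels) and read as single reads of 76 bases. The submitters' processing notes name mm10. The aligner, counter, annotation and use of strand are not given in the sources used here. Ensembl identifiers were matched to GENCODE M21 for symbols (22414 of 22629 rows), coordinates and lengths on GRCm38.

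Counts were filtered with filterByExpr (minimum 10, minimum total 15), scaled by TMM and compared with edgeR 4.0.16 in R 4.3.3 (quasi-likelihood test, Benjamini-Hochberg over all genes, threshold 0.05), with no covariate. DESeq2 1.42.0 and limma 3.58.1 were alternatives. Log2 CPM had a prior count of 2. Exact tests used scipy 1.17.1. Fits were tested on simulated data. The groups came from the labels, and no 2 tumors of a group agreed within sampling noise.

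The members and gene lists were chosen with earlier results of these data known. The genes named are the members, OVA, Ptprc, the CXCL12 coat genes, the called genes (up to 4) and the most abundant gene of each list, the 5 highest other keratins, and the 5 genes most like Krt19. Epcam, Cldn7, Spint2, Elf3, Trp63, Lor, Upk3b, Lrrn4, Wt1 and Krt8-ps served as checks or were named after their values were seen. The relation of Krt14 to Krt5, and the likeness and ratio planned for Krt17, were not analysed here. A further result is not reported here.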

Additional observations from a re-analysis of the deposited data

How the results depend on the processing

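The number of keratins called was 0 with every alternative except DESeq2 (1, Krt80) and the fit without icOVA tumor 18 (1, Krt20), a range of 0 to 1 with a tumor left out. With all tumors kept, 54 of 56 keratin fold changes kept their direction and their side of the threshold. With a tumor left out, 41 of 49 did. With a tumor left out, fold changes ran from -0.184 to 0.00487 for Krt18, -0.0795 to 0.253 for Krt19, -0.0985 to 0.148 for Krt7 and -0.0496 to 0.28 for Krt23. The values that changed sign were as follows. Krt19 was -0.00278 with limma-voom and -0.0795 without icOVA tumor 15. Krt7 was -0.0158 without sgScramble tumor 1 and -0.0985 without icOVA tumor 15, and Krt18 was 0.00487 without icOVA tumor 18. Krt23 was -0.0134 without sgScramble tumor 5, -0.0496 without icOVA tumor 16 and -0.00915 without icOVA tumor 2.

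Over all genes, 588 were called higher and 444 lower. DESeq2 called 1553 higher and 1267 lower, and the scaling to epithelial genes 78 and 67. Leaving out a tumor gave 0 to 1014 higher and 0 to 716 lower, and no gene was called after omitting icOVA tumor 15, sgScramble tumor 1 or sgScramble tumor 5 (0 in edgeR, with 3415, 3087 and 2936 genes at an unadjusted p below 0.05), and 6 higher and 2 lower without icOVA tumor 2. The calls of Lama3, F13a1, Ptprc and the other list genes are therefore lost without any of the first 3 tumors. Without sgScramble tumor 4, 681 genes were called lower. Limma-voom called none of the basal and squamous genes and 1 hepatocyte gene. The 4 correlations kept their direction and their side of the threshold with a prior count of 0.5 and with total counts. The reason for the changes was not examined. No paired analysis was possible because no tumor number occurs in both groups. Genes such as Krt14, with 2 to 15 counts, are below what this depth can compare.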
